A study of Mus musculus with 6 samples.

Results

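The striated muscle myosin light chain transcripts were described in mouse gastrocnemius muscle that expressed a constitutively active aryl hydrocarbon receptor. The 6 genes were taken by symbol from a count table of 49315 genes: Myl1, Mylpf, Myl2, Myl3, Myl6b and Myl4. They were chosen by name, with earlier results of these data known, and all 6 had enough counts to be tested. Male C57BL6J mice had received an intramuscular AAV9 injection at 5 months of age, and the gastrocnemius was harvested 5 months later. In the CAAHR group (replicates 31, 34 and 36) the virus was AAV9-HSA-CAAHR, which encodes mouse AHR with its ligand binding domain deleted, so that it is active without a ligand. In the GFP group (replicates 42, 43 and 46) it was AAV9-HSA-GFP, which encodes green fluorescent protein. Both groups carried a viral vector and a delivered transcript, from a mouse gene in CAAHR and a gene foreign to the mouse in GFP. Both transgenes used the promoter of human skeletal actin (HSA), so expression was directed to muscle fibres rather than to other cells. Uninjected muscle was not analysed here.

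Each myosin motor consists of a heavy chain whose neck is wrapped by an essential and a regulatory light chain. Light chains stiffen the neck, which works as a lever arm, and phosphorylation of the regulatory chain by myosin light chain kinases raises the calcium sensitivity of force. Fast fibres, which make up nearly all of the mouse gastrocnemius, use Myl1 (essential) and Mylpf (regulatory), whereas slow fibres use Myl3 (essential) and Myl2 (regulatory), which are also the chains of the heart ventricle. Myl6b is a further essential chain of slow muscle that is also made in non-muscle cells, and Myl4 is the essential chain of embryonic muscle and of the heart atria.

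All positions are on GRCm38 as annotated by GENCODE M21. The fast genes were Myl1 (ENSMUSG00000061816, chr1:66924295-66945404, minus strand) and Mylpf (ENSMUSG00000030672, chr7:127208890-127214298, plus strand). The slow genes were Myl2 (ENSMUSG00000013936, chr5:122100951-122113472, plus strand), Myl3 (ENSMUSG00000059741, chr9:110741861-110769798, plus strand) and Myl6b (ENSMUSG00000039824, chr10:128494157-128498685, minus strand). The embryonic gene was Myl4 (ENSMUSG00000061086, chr11:104550663-104595753, plus strand).

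The 4 essential chain genes share an exon plan, with 6 coding exons and coding exon 4 has 174 bases in each gene. This exon is shown because a count can only be assigned to a single light chain gene where the genes differ. Each sequence runs 5′ to 3′ on the coding strand, and capitals mark bases that differ from Myl1 at the same position.
Myl1, chr1:66926534-66926707: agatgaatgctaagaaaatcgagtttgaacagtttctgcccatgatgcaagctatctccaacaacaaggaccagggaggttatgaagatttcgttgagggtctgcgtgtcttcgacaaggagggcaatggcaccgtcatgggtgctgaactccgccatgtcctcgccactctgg
Myl3, chr9:110767908-110768081: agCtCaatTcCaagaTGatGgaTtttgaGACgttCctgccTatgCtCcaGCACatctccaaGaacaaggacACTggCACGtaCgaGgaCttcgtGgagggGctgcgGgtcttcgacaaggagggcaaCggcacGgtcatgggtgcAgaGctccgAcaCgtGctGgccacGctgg
Myl6b, chr10:128495054-128495227: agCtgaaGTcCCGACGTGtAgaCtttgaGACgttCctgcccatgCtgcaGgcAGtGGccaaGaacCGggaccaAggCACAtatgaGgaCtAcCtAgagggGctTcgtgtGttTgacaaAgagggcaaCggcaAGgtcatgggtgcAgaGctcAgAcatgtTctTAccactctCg
Myl4, chr11:104584439-104584612: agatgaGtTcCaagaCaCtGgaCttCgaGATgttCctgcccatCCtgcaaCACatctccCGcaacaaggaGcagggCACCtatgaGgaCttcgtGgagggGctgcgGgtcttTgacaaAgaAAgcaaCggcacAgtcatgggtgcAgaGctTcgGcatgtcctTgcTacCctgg
Against Myl1 the exon had 42 differences in Myl3, 42 in Myl4 and 52 in Myl6b.

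The regulatory chain genes have 7 coding exons, and their coding exon 4 holds 105 bases. It is shown for the same reason, with capitals where Myl2 differs from Mylpf.
Mylpf, chr7:127213418-127213522: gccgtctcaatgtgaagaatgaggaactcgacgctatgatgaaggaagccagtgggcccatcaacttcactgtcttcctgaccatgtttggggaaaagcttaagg
Myl2, chr5:122103831-122103935: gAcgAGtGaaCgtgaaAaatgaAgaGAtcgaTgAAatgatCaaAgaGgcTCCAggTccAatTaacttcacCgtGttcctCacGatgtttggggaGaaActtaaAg
The exon had 29 differences between them. Over whole coding sequences, identity was 71.6% for Myl1 with Myl3, 70.3% for Mylpf with Myl2 and 77.0% for Myl3 with Myl4, the closest pair of the 6 genes. The longest run of identical coding bases in any pair was 29, in Myl3 with Myl4. By position, exons of Myl1, Mylpf and Myl6b overlapped those of no other gene. Exons of Myl2 shared 60 bases (3.08% of their length) with Ccdc63 and those of Myl3 shared 95 bases (4.65%) with Pth1r, each on the opposite strand. Whether the libraries kept strand is not given in the sources used here, so reads in those bases could not be assigned to a strand. Myl1 encodes a long and a short chain from separate promoters, and the counts per gene do not separate them.

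Library totals lay between 43432994 and 58825752 counts. Values below are CPM, counts relative to the library total, after TMM scaling, which corrects library totals for differences in composition. Ahr, the delivered gene, was at 9.97, 22.8 and 17.3 CPM in CAAHR replicates 31, 34 and 36 and 1.87 to 2.55 CPM in GFP libraries. The log2 fold change of Ahr was 2.87 ± 0.31 (SE). Its adjusted p was 0.00229 by the edgeR quasi-likelihood test, which gave every adjusted p unless another test is named. These counts do not tell delivered from endogenous transcripts. Summed markers of skeletal muscle fibres (Acta1, Ckm, Ttn, Des, Mb and Myh4) were at 109598 to 143102 CPM in CAAHR and 166131 to 170726 CPM in GFP libraries, so the labelled tissue was present in each. CAAHR replicate 34 stood apart from the other CAAHR libraries, with the lowest sample weight in limma-voom (0.574) and the highest Ahr level. Values are given with and without this library below where it decides a call. Of 15847 genes tested, 1205 (7.60%) were called at an adjusted p under 0.05. The labels do not say whether libraries came from separate animals, so p-values measure the spread between these libraries.

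The fast Myl1 and the embryonic Myl4 were lower in CAAHR muscle, Mylpf had lower values that missed the threshold, and the slow Myl2 and Myl3 had higher means with a wide spread. Of the 6 genes, 2 were called, Myl1 and Myl4, and both fell. Of all tested genes, 7.60% were called and 4.57% were called lower. An unadjusted p under 0.05 was reached by 4 of 6, against 23.9% of all tested genes. The groups did not overlap for 3 of 6 (Myl1, Mylpf and Myl4), against 29.9% of all tested genes. The log2 fold change was above 0 for 3 of 6, and its median was -0.12, beside 0.01 over all genes tested. With so few genes, these counts are a description.

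**Figure D1:**
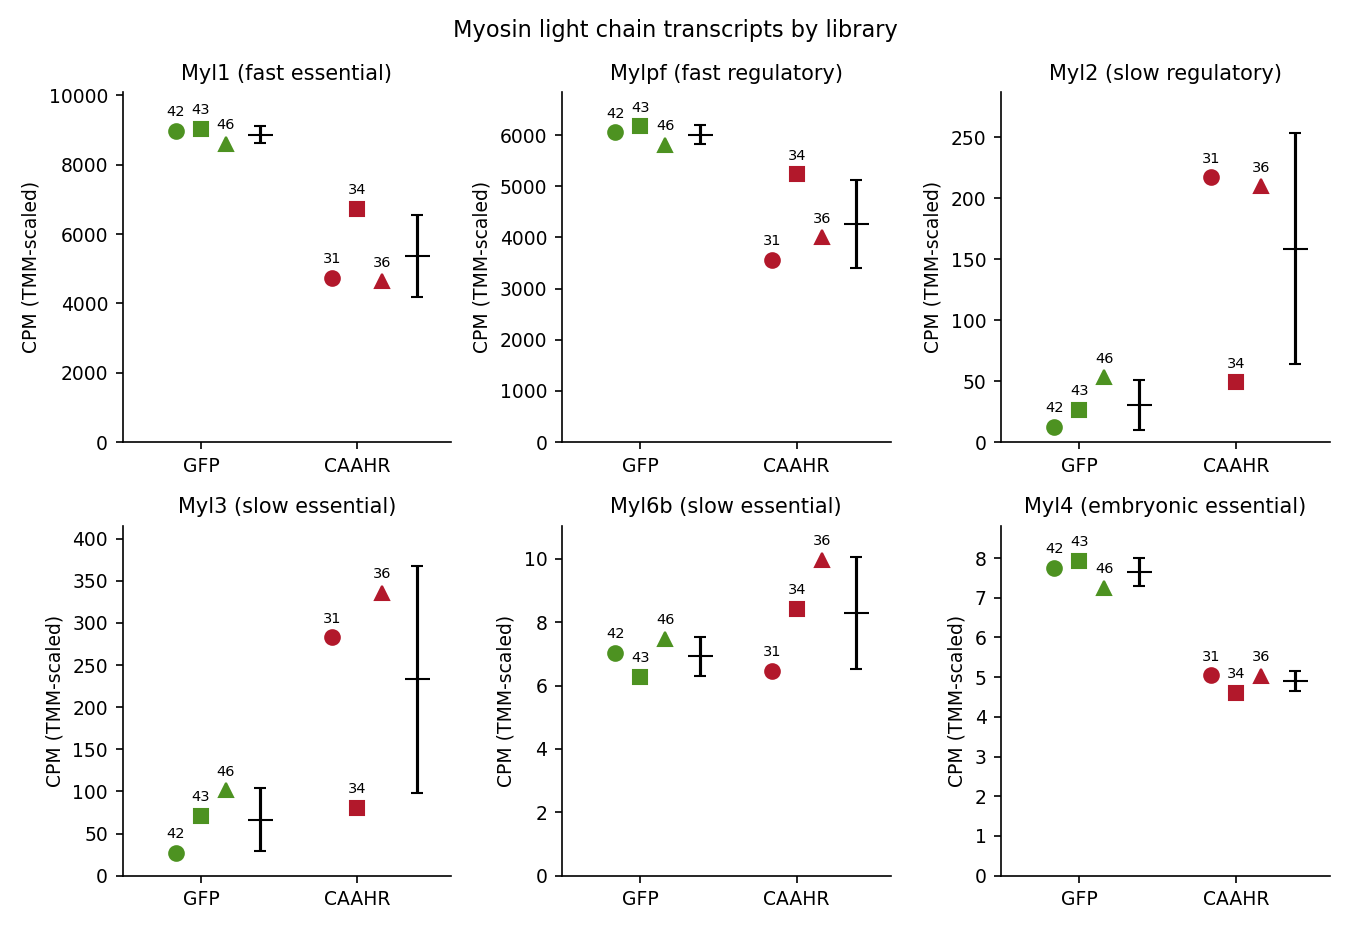
Level of each light chain transcript in TMM-scaled CPM (vertical axis, each panel on its own scale from 0) in GFP (green) and CAAHR (red) libraries, with points numbered by replicate and bars for the mean ± SD (n = 3). CAAHR points of Myl1, Mylpf and Myl4 lie below all GFP points, whereas for Myl2 and Myl3 CAAHR replicate 34 lies among the GFP points.

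Myl1, the fast essential chain, was at 4734 CPM in replicate 31, 6721 CPM in replicate 34 and 4643 CPM in replicate 36 of CAAHR, and at 8975, 9030.4 and 8597 CPM in GFP replicates 42, 43 and 46. Every CAAHR library lay below every GFP library, and replicate 34 was the nearest to them. The means were 5366 ± 1174 CPM (SD, n = 3) and 8867 ± 236 CPM, and Myl1 fell by 0.72 ± 0.16 (SE) on the log2 scale, with a 95% interval of -1.09 to -0.36 and an adjusted p of 0.028. Without CAAHR replicate 34 the log2 fold change was -0.93. The call was lost when any other library was left out, with log2 fold changes from -0.75 to -0.64 and adjusted p from 0.082 to 0.127. Myl1 was among the most abundant transcripts of the muscle, at rank 19 of all genes by mean CPM.

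Mylpf, the fast regulatory chain, was at 3558 CPM in replicate 31, 5231 CPM in replicate 34 and 4004 CPM in replicate 36 of CAAHR, and at 6055, 6168 and 5806 CPM in GFP replicates 42, 43 and 46. Here too the groups did not overlap. The means were 4264 ± 866 and 6010 ± 185 CPM, and the log2 fold change was -0.49 ± 0.16, with a 95% interval of -0.85 to -0.14 and an adjusted p of 0.0879, which missed the threshold. It passed without CAAHR replicate 34 (log2 fold change -0.68, adjusted p 0.00612). Mylpf ranked 26 of all genes by mean CPM.

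Other abundant fibre transcripts were examined beside the fast pair. Of the 6 markers of skeletal muscle fibres, 2 were called, both lower, beside 7.60% of all tested genes called. They were Acta1, the actin of the thin filament (log2 fold change -0.74 ± 0.13), and Ckm, muscle creatine kinase (-0.73 ± 0.16). Des (-0.48), Myh4 (-0.31), Ttn (0.03) and Mb (1.03) were not called, so 2 of 6 had a log2 fold change above 0. The median log2 fold change of the 6 markers was -0.40, and their part in the values of Myl1 and Mylpf was not tested.

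Transcripts of immune cells differed between the groups as well, in a list chosen after values were seen. The summed level of Ptprc, Cd3e, Cd4, Cd8a, Cd79a, Ighm, Adgre1, Cd68, Lyz2 and Cd52 was 37.1, 28.1 and 27.4 CPM in CAAHR replicates 31, 34 and 36, and 149.9, 467 and 293 CPM in GFP replicates 42, 43 and 46, which includes the immunoglobulin gene Ighm (7.82 to 17.8 CPM in CAAHR and 121 to 392 CPM in GFP). Of 8 that could be tested, 4 were called, all lower (Ptprc, Cd79a, Ighm and Cd52), beside 7.60% of all tested genes called. DESeq2 called 7 and limma-voom 3, where they called 12.1% and 9.22% of all tested genes. The groups did not overlap for 7 of 8, against 29.9% of all tested genes, and the median log2 fold change was -1.90. Cd79a had 8, 10 and 13 counts and Cd52 had 15, 10 and 26 in CAAHR replicates 31, 34 and 36. Both passed the filter of the reported fit only through their GFP libraries. The list was chosen after values were seen, so its counts are a description. Summed over this list, GFP muscle held more immune transcripts than CAAHR muscle. The paper reports by qPCR that selected immune genes were not lower in CAAHR muscle than in muscle that received no virus. It reads the difference as a local immune response to AAV-GFP, the control virus of every comparison here. Over the GFP libraries the summed level ran from 149.9 to 467 CPM. Over the same libraries Myl1 ran from 8597 to 9030.4 CPM, Myl2 from 12.6 to 53.1 CPM and Myl3 from 26.9 to 101 CPM. The part of immune cells in the light chain values was not tested. In whole muscle, fewer fibres of a type and less RNA per fibre cannot be told apart.

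Myl2, the slow regulatory chain, was at 217 CPM in replicate 31, 49.2 CPM in replicate 34 and 209.8 CPM in replicate 36 of CAAHR, and at 12.6, 26.6 and 53.1 CPM in GFP replicates 42, 43 and 46. Replicates 31 and 36 were above all GFP libraries, while replicate 34 lay below GFP replicate 46. The means were 159 ± 94.96 and 30.8 ± 20.6 CPM, a fitted 5.15-fold difference. The log2 fold change of 2.36 ± 0.82 had a 95% interval of 0.26 to 4.47, an unadjusted p of 0.0345 and an adjusted p of 0.171. Myl2 was not called by this test, but DESeq2 (adjusted p 0.0353) and limma-voom with sample weights (adjusted p 0.0217) called it. Within the GFP group alone, replicates 42 and 46 spanned 12.6 to 53.1 CPM.

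Myl3, the slow essential chain, was at 283 CPM in replicate 31, 80.8 CPM in replicate 34 and 336 CPM in replicate 36 of CAAHR, and at 26.9, 71.0 and 101 CPM in GFP replicates 42, 43 and 46. The libraries thus kept the pattern of Myl2, with CAAHR replicate 34 between GFP replicates 43 and 46. The means were 233 ± 135 and 66.5 ± 37.5 CPM, and the log2 fold change of 1.81 ± 0.74 (95% interval -0.11 to 3.73, adjusted p 0.23) did not pass. DESeq2 did not call Myl3, and limma-voom did (adjusted p 0.047).

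Markers of slow fibres, other than light chains, also had higher means in CAAHR muscle, but unlike Myl2 and Myl3 their groups did not overlap. The summed level of Myh7, Tnnt1, Tnni1, Tnnc1, Tpm3, Atp2a2 and Casq2 was 2317 CPM in replicate 31, 531 CPM in replicate 34 and 2000.1 CPM in replicate 36 of CAAHR. It was 195, 246 and 320 CPM in GFP replicates 42, 43 and 46. Over those GFP libraries Myl2 ran from 12.6 to 53.1 CPM and Myl3 from 26.9 to 101 CPM. Each of the 7 was free of overlap between groups (29.9% of all tested genes were), and their median log2 fold change was 2.88. The edgeR test called 0 of 7, beside 7.60% of all tested genes. An unadjusted p under 0.05 was reached by 7 of 7, against 23.9% of all tested genes. DESeq2 and limma-voom each called 7 of 7, where they called 12.1% and 9.22% of all tested genes. Their part in the values of Myl2 and Myl3 was not tested. Cardiac markers (Myh6, Nppa, Nppb, Tnni3 and Ryr2) were low throughout, with summed levels of 2.28 to 7.73 CPM in CAAHR and 1.70 to 1.89 CPM in GFP. Most of the CAAHR sum was Myh6, at 5.12 ± 3.15 CPM against 0.885 ± 0.0904 CPM in GFP. Tnni3 and Ryr2 had log2 fold changes of -0.29 and -0.20 and were not called. The natriuretic peptide gene Nppa had 1 to 4 counts and Nppb 0 to 1 count in each library.

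Myl6b, the essential chain of slow and non-muscle cells, was at 6.47 CPM in replicate 31, 8.42 CPM in replicate 34 and 9.97 CPM in replicate 36 of CAAHR, and at 7.02, 6.27 and 7.48 CPM in GFP. Unlike Myl2 and Myl3, its CAAHR value was lowest in replicate 31, which fell within the GFP range. The means were 8.29 ± 1.76 and 6.93 ± 0.608 CPM. Its log2 fold change of 0.26 ± 0.17 had a 95% interval of -0.11 to 0.63 and an adjusted p of 0.389, and no alternative called it. The interval excludes a doubling of Myl6b.

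Myl4, the embryonic and atrial essential chain, was at 5.04 CPM in replicate 31, 4.603 CPM in replicate 34 and 5.04 CPM in replicate 36 of CAAHR, and at 7.75, 7.93 and 7.25 CPM in GFP replicates 42, 43 and 46. The CAAHR libraries lay close together, replicate 34 included, and all were below the GFP libraries. Counts were between 255 and 384 in a library. The means were 4.89 ± 0.252 and 7.64 ± 0.353 CPM, and Myl4 fell by 0.64 ± 0.12 on the log2 scale, with a 95% interval of -0.92 to -0.37 and an adjusted p of 0.0144. The call was lost without CAAHR replicate 36 (adjusted p 0.0503) or GFP replicate 43 (adjusted p 0.0606).

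The other transcripts of embryonic and regenerating fibres were examined beside Myl4. The summed level of Myh3, Myh8, Myog, Mymk, Ncam1 and Chrng was 53.7 to 75.2 CPM in CAAHR and 61.1 to 67.5 CPM in GFP libraries. Of 4 that could be tested, 0 were called by edgeR, 1 had an unadjusted p under 0.05, DESeq2 called 1 and limma-voom 0. Of all tested genes, edgeR called 7.60%, DESeq2 12.1% and limma-voom 9.22%, and 23.9% had an unadjusted p under 0.05 in edgeR. The log2 fold change was above 0 for 3 of 4, unlike that of Myl4, and its median was 0.48. Myog, the myogenic factor myogenin, was at 2.75, 4.74 and 4.92 CPM in CAAHR replicates 31, 34 and 36 and at 2.57, 2.07 and 1.49 CPM in GFP replicates 42, 43 and 46, without overlap (log2 fold change 1.02 ± 0.27, unadjusted p 0.00425, adjusted p 0.0523). Mymk, which encodes the fusion protein myomaker, had 0 to 4 counts in each library. The embryonic heavy chain Myh3 was at 6.87 ± 3.20 CPM in CAAHR and 4.33 ± 0.876 CPM in GFP (log2 fold change 0.67 ± 0.38, adjusted p 0.344), and was called higher without CAAHR replicate 34 (1.003, adjusted p 0.00601). The perinatal Myh8 was at 39.9 ± 11.6 and 47.3 ± 1.14 CPM (-0.25 ± 0.20, adjusted p 0.501). Erythroid transcripts (Hba-a1, Hba-a2, Hbb-bs, Hbb-bt and Alas2), a sign of blood in the tissue, were at 100.3 to 227 CPM in CAAHR and 101 to 185 CPM in GFP in sum. Of these, 0 of 5 were called by any of the 3 tools, with 1 of 5 at an unadjusted p under 0.05 in each. The shares of all tested genes are those given above.

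**Figure D2:**
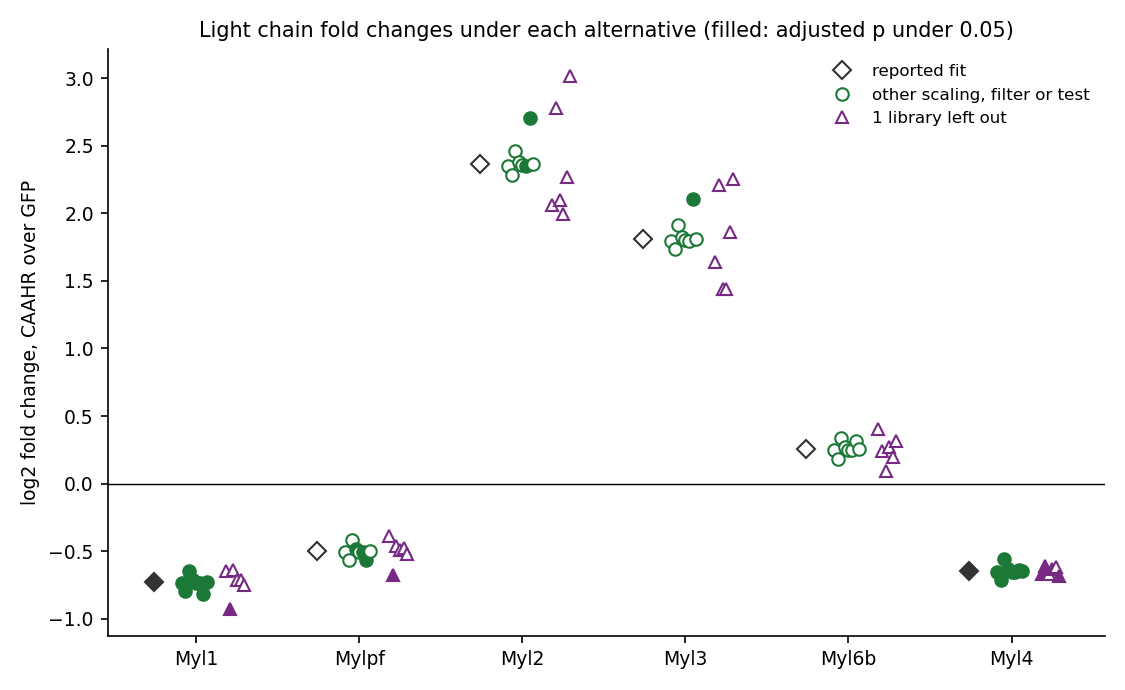
Log2 fold change of CAAHR over GFP (vertical axis) for each light chain under the reported fit (diamond), other scalings, filters and tests (circles) and with 1 library left out (triangles), filled where the adjusted p was under 0.05. No symbol crosses 0 for any gene, Myl1 keeps its call in each circle but in 1 of 6 triangles, and Myl2 ranges from 1.99 to 3.02 when a library is left out.

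The balance of slow to fast chains was compared within each library, where scaling between libraries has no effect. For the regulatory chains, the log2 ratio of Myl2 to Mylpf counts was -4.03 in replicate 31, -6.73 in replicate 34 and -4.25 in replicate 36 of CAAHR, and -8.90, -7.86 and -6.77 in GFP replicates 42, 43 and 46. The groups did not overlap, but replicate 34 and GFP replicate 46 were almost level. The means were -5.01 ± 1.499 and -7.84 ± 1.07, a difference of 2.84 with an exact permutation p of 0.1 (two-sided), the smallest that 3 libraries against 3 can give. Without CAAHR replicate 34 the difference was 3.70.

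For the essential chains, the log2 ratio of Myl3 to Myl1 counts was -4.06 in replicate 31, -6.38 in replicate 34 and -3.79 in replicate 36 of CAAHR, and -8.38, -6.99 and -6.40 in GFP replicates 42, 43 and 46. Both light chain positions of the motor therefore gave the same order of groups, again with replicate 34 next to GFP replicate 46. The means were -4.74 ± 1.42 and -7.26 ± 1.01, a difference of 2.51 (exact permutation p 0.1, two-sided). In every library the slow member was the rarer of its pair.

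**Figure D3:**
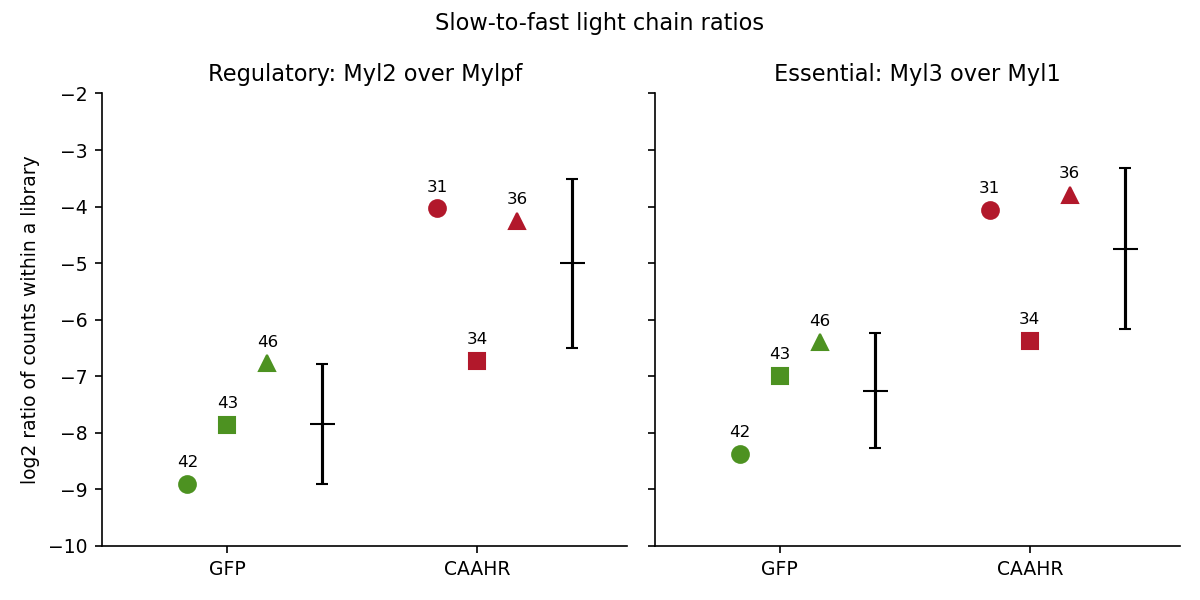
Log2 ratio of slow to fast light chain counts within a library (vertical axis) for the regulatory pair (left) and the essential pair (right), with points numbered by replicate and bars for the mean ± SD (n = 3). CAAHR replicates 31 and 36 lie near -4 in both panels, and CAAHR replicate 34 lies just above GFP replicate 46.

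Levels of different genes were compared per kb of exon, since a longer transcript yields more counts. In GFP muscle, Mylpf was at 5659 ± 174 and Myl1 at 4275 ± 114 CPM per kb, followed by Myl3 at 32.5 ± 18.3, Myl2 at 15.8 ± 10.5, Myl6b at 3.75 ± 0.329 and Myl4 at 1.65 ± 0.0760. The fast genes were far above the rest, and Myl3 was above Myl2 in each of the 3 GFP libraries. In CAAHR muscle the order was the same, with Mylpf at 4015 ± 816, Myl1 at 2587 ± 566, Myl3 at 114 ± 65.9, Myl2 at 81.4 ± 48.7, Myl6b at 4.49 ± 0.952 and Myl4 at 1.06 ± 0.0544 CPM per kb. Myl3 was again above Myl2 in each of the 3 libraries. Lengths were those of all annotated exons joined, which range from 1.06 kb for Mylpf to 4.64 kb for Myl4. With the length of a single transcript per gene, the lowest-numbered in the annotation, Myl1 (8195 CPM per kb in GFP) came above Mylpf (7845), and Myl4 (8.70) above Myl6b (6.75), so in GFP muscle the order within these pairs depends on the length used. In CAAHR muscle it did not, with Mylpf (5567) above Myl1 (4959) and Myl6b (8.08) above Myl4 (5.57). By that length Myl3 (249 CPM per kb) and Myl2 (239.8) were close in CAAHR muscle.

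Summed over the 6 genes, the level was 5887, 8236 and 6287 CPM per kb in CAAHR replicates 31, 34 and 36, and 10054, 10215 and 9694 CPM per kb in GFP replicates 42, 43 and 46. The CAAHR libraries were lower without overlap, at 6803 ± 1257 against 9988 ± 267, a difference of -3184 CPM per kb (exact permutation p 0.1, two-sided). As a share of all counts in the library, before scaling, the 6 genes took 0.926 to 1.21% in CAAHR and 1.42 to 1.49% in GFP.

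The slow genes Myl2, Myl3 and Myl6b made up 4.30, 0.842 and 4.41% of the summed per-kb level in CAAHR replicates 31, 34 and 36, and 0.233, 0.507 and 0.835% in GFP replicates 42, 43 and 46. The light chain pool thus remained fast in each library. Replicate 34 exceeded GFP replicate 46 by a margin that is small beside the spread within either group. The means were 3.19 ± 2.03% and 0.525 ± 0.301%, a difference of 2.66 percentage points (exact permutation p 0.1, two-sided). It was 3.83 points without CAAHR replicate 34, 3.61 points without length scaling and 4.09 points with the length of a single transcript per gene.

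The remaining genes of the light chain family, those of smooth muscle, non-muscle, atrial and lymphoid tissue, gave 1 call among 5 tested. Of all tested genes, 7.60% were called and 3.04% were called higher. The median log2 fold change of these light chain genes was -0.07. Myl10, a regulatory chain first described in lymphoid cells, was at 2.69, 1.02 and 2.76 CPM in CAAHR replicates 31, 34 and 36 and at 0.829, 0.312 and 0.415 CPM in GFP replicates 42, 43 and 46. Its groups did not overlap, and it rose by a log2 fold change of 2.04 ± 0.47 (adjusted p 0.0369). These levels rest on 13 to 168 counts in a library, and the call was lost without CAAHR replicate 31 or 36 or GFP replicate 43 or 46 (adjusted p 0.108 to 0.142). Myl6, the widespread non-muscle essential chain whose gene lies next to Myl6b, was at 69.5 ± 2.997 and 81.0 ± 4.74 CPM (log2 fold change -0.22 ± 0.09, adjusted p 0.172).

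The smooth muscle chain Myl9 was at 26.9 ± 8.45 CPM in CAAHR and 34.1 ± 1.31 CPM in GFP muscle (log2 fold change -0.34 ± 0.22, adjusted p 0.398). Summed smooth muscle and pericyte markers (Acta2, Myh11, Tagln, Cnn1, Smtn and Rgs5) were at 306 to 492 CPM in CAAHR and 410.4 to 416 CPM in GFP. Of these markers, 1 of 6 was called (Smtn, lower), beside 7.60% of all tested genes. The non-muscle regulatory chains were at 196 ± 54.0 and 158 ± 7.23 CPM for Myl12a (log2 fold change 0.31 ± 0.19, adjusted p 0.379) and 13.9 ± 3.11 and 14.6 ± 1.86 CPM for Myl12b (-0.07 ± 0.17, adjusted p 0.854). Both share exon bases with an overlapping gene of the same strand, so their split is uncertain. Without CAAHR replicate 34 Myl12a was called, with a log2 fold change of 0.51 and an adjusted p of 0.0125. The atrial regulatory chain Myl7 had 1 count in CAAHR replicate 34 and 0 in all other libraries, and was not tested.

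Kinases that phosphorylate regulatory chains, and subunits of the phosphatase that reverses it, gave 3 calls among 8 tested genes, 2 higher and 1 lower, beside 7.60% of all tested genes called, with a median log2 fold change of 0.02. Mylk3, the kinase best known from the heart, had 191, 85 and 170 counts in CAAHR replicates 31, 34 and 36, against 4, 2 and 1 counts in GFP replicates 42, 43 and 46. All CAAHR libraries, replicate 34 included, were far above the GFP libraries. Its level was 1.49 to 3.78 CPM in CAAHR and at most 0.0829 CPM in GFP, and it rose by a log2 fold change of 5.70 ± 0.53 (adjusted p 0.000622). Pooled per group, the ratio was 54.0, with an exact 95% interval of 26.0 to 135 that covers counting error only. Mylk3 was called in each fit that tested it, but it passed the filter of the reported fit only through its CAAHR libraries. The size of its rise rests on 7 GFP counts in all, and a filter of at least 10 counts in every library removed it.

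Mylk4, a kinase of striated muscle, was far more abundant, at 1123, 1309 and 1034 CPM in CAAHR replicates 31, 34 and 36 and 1786, 2063 and 1463 CPM in GFP replicates 42, 43 and 46. It fell by 0.62 ± 0.15 on the log2 scale (adjusted p 0.0416) without overlap. The call was lost without CAAHR replicate 31 or 36 or GFP replicate 42 or 43 (adjusted p 0.103 to 0.151) and when libraries were scaled by total counts only (0.0501). Mylk2, the skeletal muscle kinase of the regulatory chain, was at 1087 ± 204 and 1171 ± 99.9 CPM, and its log2 fold change of -0.11 ± 0.15 (95% interval -0.45 to 0.23, adjusted p 0.729) did not pass. The smooth muscle kinase Mylk had a log2 fold change of -0.03 ± 0.24 (adjusted p 0.954), whose sign varied among the alternatives. Among the kinase genes, Mylk3 rose and Mylk4 fell.

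Among the phosphatase genes, Ppp1r12a, a myosin-targeting subunit, was at 29.8, 28.8 and 26.8 CPM in CAAHR replicates 31, 34 and 36 and 22.4, 22.4 and 18.4 CPM in GFP replicates 42, 43 and 46. It rose by 0.43 ± 0.11 on the log2 scale (adjusted p 0.0401), a call lost when any library was left out (adjusted p 0.0527 to 0.109), with upper quartile scaling (0.069) and with limma-voom (0.0509). The striated muscle form Ppp1r12b (log2 fold change 0.24 ± 0.16, adjusted p 0.395) was called higher only without CAAHR replicate 34 (0.400, adjusted p 0.0421), among the alternatives run. Ppp1r12c (0.02 ± 0.12, adjusted p 0.939) and the catalytic subunit Ppp1cb (0.01 ± 0.12, adjusted p 0.961) did not pass, and the sign of each varied among the alternatives.

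Heavy chains, the partners that carry the light chains, gave 1 call among 8 tested, near the 7.60% of all tested genes. Their median log2 fold change was 1.19, and 3 of 8 had an unadjusted p under 0.05, against 23.9% of all tested genes. Myh7b, a slow-type heavy chain, was at 11.6, 3.27 and 11.0 CPM in CAAHR replicates 31, 34 and 36 and 1.53, 1.25 and 1.59 CPM in GFP replicates 42, 43 and 46. It rose by a log2 fold change of 2.56 ± 0.49 (adjusted p 0.0302), and the call was lost without any single library other than CAAHR replicate 34 (adjusted p 0.0654 to 0.137) and with no filter on low counts (0.0999). Without CAAHR replicate 34 the log2 fold change of Myh7b was 2.94 (adjusted p 5.84e-06). Myh7, the main slow heavy chain, was at 877, 156 and 809 CPM in CAAHR and 37.5, 52.6 and 79.5 CPM in GFP. Its groups did not overlap, yet its log2 fold change of 3.44 ± 0.78 missed the threshold (adjusted p 0.0691). It passed without CAAHR replicate 34 (3.89, adjusted p 0.00188), with DESeq2 (adjusted p 0.000118) and with limma-voom (adjusted p 0.00413). Here replicate 34 was low for the slow heavy chain as it was for the slow light chains.

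The fast heavy chain Myh4, which with Myl1 and Mylpf forms the fastest mouse motor, was at 71037 ± 14643 CPM in CAAHR and 88135 ± 5061 CPM in GFP muscle, and its log2 fold change of -0.31 ± 0.18 (adjusted p 0.325) did not pass. Without CAAHR replicate 34 it was called lower (-0.48, adjusted p 0.0468). The intermediate fast chains had higher means in CAAHR muscle with wide spreads, namely Myh1 at 4486 ± 2113 and 2248 ± 1609 CPM (log2 fold change 0.997 ± 0.647, adjusted p 0.427) and Myh2 at 3643 ± 2028 and 1399 ± 1049 CPM (1.38 ± 0.81, adjusted p 0.386). Myh6, a cardiac heavy chain, was at 5.12 ± 3.15 and 0.885 ± 0.0904 CPM (2.53 ± 0.59, adjusted p 0.0537), without overlap. Myh6 passed without CAAHR replicate 34 (2.96, adjusted p 1.16e-05), with DESeq2 (adjusted p 7.52e-07), limma-voom (0.0436), edgeR without robust estimation (0.0225) and library size only (0.0462).

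**Figure D4:**
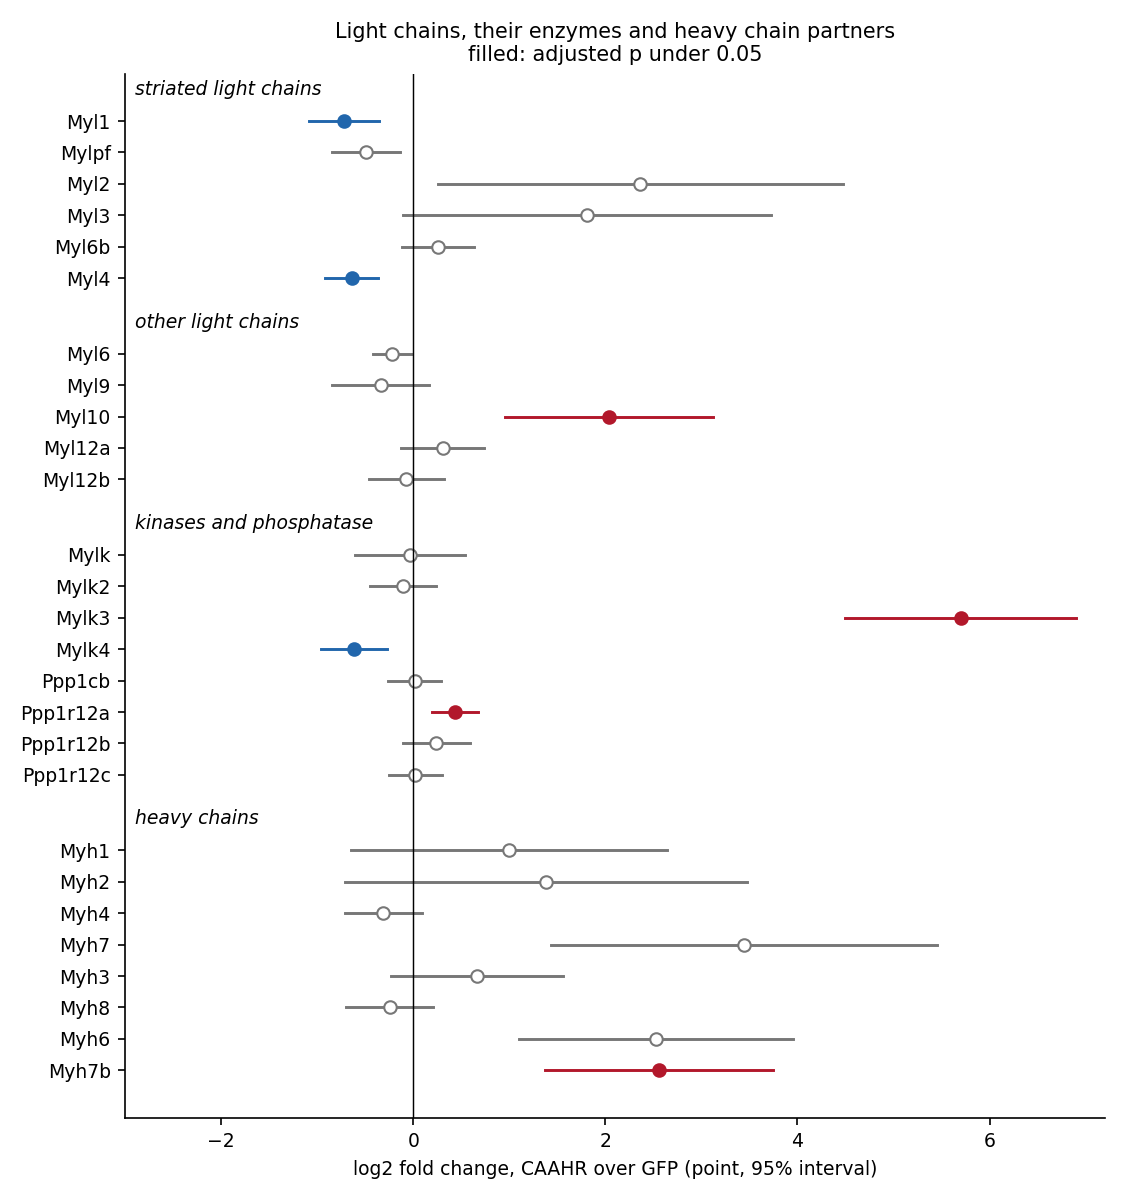
Log2 fold change of CAAHR over GFP (horizontal axis) with its 95% interval for each tested light chain, kinase, phosphatase and heavy chain gene, filled where the adjusted p was under 0.05 (blue lower, red higher). Intervals of the slow and intermediate genes (Myl2, Myl3, Myh1, Myh2 and Myh7) are much wider than those of Myl1, Mylpf and Myl4.

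For each light chain, the genes whose log2 CPM followed it most closely over the 6 libraries were listed by Pearson's r among 7048 genes with a mean of at least 10 CPM. The points share the 2 groups and their library scaling, so r is a description. Myl1 was nearest to Fosb (r = 0.998), an immediate early transcription factor gene, Smtnl2 (0.997) and the adiponectin receptor gene Adipor1 (0.996), and Mylpf to Asb10 (0.998), Rhobtb2 (0.997) and Lrrc20 (0.996). Myl2 was nearest to Idh2 (0.998), which encodes mitochondrial isocitrate dehydrogenase, Mybpc1 (0.996), the slow myosin-binding protein C, and Acaa2 (0.995), a mitochondrial thiolase. Myl3 was nearest to Padi2 (0.997), Ndufb2 (0.995) and Idh2 (0.995), so a gene was shared by the lists of Myl2 and Myl3. Myl4 was nearest to Ugdh (0.993), Slc12a2 (0.991) and Tmem150a (0.989), and all 3 of these fell, with log2 fold changes of -1.19, -0.74 and -0.40. Myl6b was nearest to Rrp1 (0.987), the proteasome subunit gene Psmb1 (0.987) and Rgl2 (0.980).

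Promoter windows were read because the delivered protein is a transcription factor. RefSeq (GRCm38.p6) gave 7 start sites for the 6 genes. The 250 bases before each were searched on both strands for the AHR core GCGTG, the E-box CANNTG bound by myogenic factors, and the MEF2 and CArG motifs, the last bound by serum response factor. Windows of a fast, a slow and a slow/non-muscle gene are shown, 5′ to 3′ on the gene's strand, with matches in capitals. That of Myl3 ends before its annotated first exon.
Mylpf, chr7:127211358-127211607, plus strand: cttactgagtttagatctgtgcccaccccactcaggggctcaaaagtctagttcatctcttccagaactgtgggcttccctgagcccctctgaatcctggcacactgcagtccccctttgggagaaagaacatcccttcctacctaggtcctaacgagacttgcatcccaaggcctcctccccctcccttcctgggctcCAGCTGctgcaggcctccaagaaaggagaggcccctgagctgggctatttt
Myl3, chr9:110763428-110763645, plus strand: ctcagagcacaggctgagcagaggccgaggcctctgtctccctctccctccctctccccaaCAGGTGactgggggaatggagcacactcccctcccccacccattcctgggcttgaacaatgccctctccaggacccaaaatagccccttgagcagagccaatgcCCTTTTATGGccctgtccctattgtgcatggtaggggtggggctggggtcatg
Myl6b, chr10:128498686-128498935, minus strand: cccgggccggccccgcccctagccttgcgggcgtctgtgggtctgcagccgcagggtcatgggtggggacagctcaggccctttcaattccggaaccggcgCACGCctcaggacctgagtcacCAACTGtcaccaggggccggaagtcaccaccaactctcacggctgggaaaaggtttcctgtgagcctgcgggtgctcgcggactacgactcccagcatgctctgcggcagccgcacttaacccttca
The Mylpf window held the E-box CAGCTG 51 bases before the start site. The Myl3 window held the E-box CAGGTG at 189 bases and the CArG motif CCTTTTATGG at 85 bases. In Myl6b, the E-box CAACTG lay at 127 bases and CACGC, the AHR core read on the other strand, at 149 bases. Over 32851 RefSeq windows of the same length, 66.2% held an E-box, 28.2% an AHR core, 2.92% a MEF2 motif and 1.47% a CArG motif. The AHR core was in the windows of Myl1 and Myl6b, with 1 match each, and no window searched held the MEF2 motif. Both RefSeq start sites of Myl2 (122092724 and 122093189) lie before the gene as annotated above, which begins at 122100951, so the bases just before that start were not searched. These matches are letters in a sequence and do not show binding.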

How the data were processed

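Poly(A)-selected RNA of 6 gastrocnemius libraries was sequenced as paired ends by the authors. Trimming used Trimmomatic 0.36 and alignment to GRCm38 used STAR 2.5.2b, per the submitters' processing notes, and the authors deposited raw counts per gene of unique exon reads from featureCounts. No library repeated another (between libraries of a group, chi-square divided by its degrees of freedom was 23.7 or more).

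Groups came from the sample titles. Group comparisons used edgeR 4.0.16 in R 4.3.3 (filterByExpr, TMM scaling, robust quasi-likelihood test) across 15847 genes, with Benjamini-Hochberg adjustment over all of them at 0.05. Intervals are 95%. Ratios within libraries were compared by exact permutation. Calculations were tested on simulated data. Alternatives were other scalings and filters, DESeq2 1.42.0, limma 3.58.1 (voom with sample weights), edgeR without robust estimation, other length rules and leaving out each library. A length rule using 1 transcript per gene was added after seeing the data.

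The genes and lists were chosen with earlier results of these data known. Named were the 6 light chains, every tested gene of the family, kinase and phosphatase, and heavy chain lists, and for each light chain the 3 genes with the highest r of log2 CPM (prior count 2). Marker genes were named where their list was reported. Motifs were matched to RefSeq start windows.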

Additional observations from a re-analysis of the deposited data

How the results depend on the processing

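None of the 6 striated light chains changed direction under any alternative run. Among the other genes named, Myl12b, Mylk, Mylk2, Ppp1cb and Ppp1r12c, which were not called, changed sign under at least 1 alternative. No paired analysis was possible because no replicate number occurs in both groups. Of 15847 genes tested, the 1205 calls (7.60%) became 1923 with DESeq2 (12.1%) and 1461 with limma-voom (9.22%). They became 1476 with library size only and 1279 with edgeR without robust estimation. With no filter on low counts, 2470 of 28661 genes were called. Leaving out a library gave 530 of 16170 to 1727 of 16180. Of the calls, 60.1% were lower with TMM scaling, 73.4% with upper quartile scaling and 40.7% with library size only. Of the 6 light chains, the 2 calls became 4 with DESeq2, 5 with limma-voom and 0 to 3 when a library was left out. These counts, and those of the lists below, stand beside the counts over all genes given above. Leaving out a library gave 0 to 2 calls among the other light chains, 1 to 3 among kinases and phosphatase genes and 0 to 5 among heavy chains. Heavy chain calls were 2 with library size only, 0 with no filter, and 3 with each of DESeq2, limma-voom and edgeR without robust estimation.

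With a library left out, log2 fold changes were -0.93 to -0.64 for Myl1 (called in 1 of 6), -0.68 to -0.39 for Mylpf (1 of 6), -0.68 to -0.61 for Myl4 (4 of 6), 1.99 to 3.02 for Myl2, 1.44 to 2.25 for Myl3 and 0.10 to 0.40 for Myl6b (0 of 6 for these). Mylpf passed with no filter (-0.48, adjusted p 0.00786), DESeq2 (-0.50, adjusted p 0.0101) and limma-voom (-0.57, adjusted p 0.0294). Myl2 passed with DESeq2 (2.35) and limma-voom (2.70), and Myl3 with limma-voom (2.10). The cause was not tested. Exact tests of 3 against 3 cannot pass 0.05.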

Other observations

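Ratios within the fast and within the slow pair were computed after their values were seen. The log2 ratio of Myl1 to Mylpf counts was 0.41, 0.36 and 0.21 in CAAHR replicates 31, 34 and 36 and 0.57, 0.55 and 0.57 in GFP replicates 42, 43 and 46, so the essential fast chain was lower relative to the regulatory one in each CAAHR library (means 0.33 ± 0.10 and 0.56 ± 0.01, exact permutation p 0.1, the smallest possible). The log2 ratio of Myl2 to Myl3 counts was -0.38, -0.72 and -0.68 in CAAHR and -1.09, -1.42 and -0.93 in GFP, a difference of 0.55 (exact permutation p 0.1), with the slow regulatory chain higher relative to the essential one in each CAAHR library.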
